A study of Mus musculus with 3 samples.

Results

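The genes described here are 10 textbook targets of the transcription factor p53 that are not inhibitors of cyclin-dependent kinases: Mdm2, Ccng1, Trp53inp1, Bax, Bbc3, Pmaip1, Phlda3, Zmat3, Aen and Sesn1. They were chosen by name, and all probes named for them were taken, which gave 12 of the 55681 probes of the array and 10 of its 36983 genes and other transcripts. RNA of mouse embryos of stage E8.75 was compared on 3 arrays with 2 colours. Each array set wild-type embryo RNA in the Cy3 (green) channel against Brpf1-deficient embryo RNA in the Cy5 (red) channel, as labelled, and no treatment was given to either. Brpf1 encodes a scaffold of histone acetyltransferase complexes. The labels give no allele, strain, sex or Cre driver for either genotype, and how many embryos went into an RNA is not stated there. All errors and p-values therefore rest on these 3 pairs only. They come from limma, which draws each gene's variance between pairs toward a value shared by all genes tested. An SE or interval given here can thus be wider or narrower than the SD of the pairs alone would make it.

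p53 is kept scarce in unstressed cells by the ubiquitin ligase MDM2 and accumulates after DNA damage and other stress. It then binds DNA and switches on genes that stop the cell cycle, trigger cell death through mitochondria, or repair and protect the cell. Mdm2 is itself a target, which closes a feedback loop. The mouse embryo is sensitive to this balance, since embryos without Mdm2 die early unless p53 is removed too. The targets are therefore read as a gauge of p53 activity, although each is also regulated by other factors.

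p53 binds to a pair of decamers of a shared consensus, and letters that match it were found near the start of some of the genes. RefSeq promoter windows of GRCm38.p6, each 300 bases from 250 before to 50 after a transcription start, were matched by symbol for 7 of the 10 genes. An exact match to the p53 consensus decamer, which reads the same on both strands, was found in 6 of their 11 windows (54.5%) and in 2745 of all 32841 windows (8.36%). Of these 6 windows, 2 are overlapping windows of Aen that hold the same decamer. A pair of decamers with at most 2 mismatches in all and at most 13 bases between them was found in 3 of the 11 windows (27.3%) and in 4.09% of all windows. Since the genes were picked as known p53 targets, these shares describe them and test nothing, and a match of letters is no measurement of binding. The 5 genes with an exact match are given on the strand of the gene, 5′ to 3′, to show the element that these 5 share, with the matched decamers in capitals.
Ccng1: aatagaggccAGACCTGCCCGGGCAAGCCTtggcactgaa
Bax: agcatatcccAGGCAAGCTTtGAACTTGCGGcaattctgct
Sesn1: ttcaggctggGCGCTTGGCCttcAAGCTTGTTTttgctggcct
Mdm2: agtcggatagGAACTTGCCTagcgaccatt
Aen: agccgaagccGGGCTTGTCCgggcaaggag
In Ccng1 (chr11:40755452-40755491, minus strand) the decamers abut, begin 195 bases before the start and hold 1 mismatch. In Bax (chr7:45467069-45467109, minus strand) the pair begins 201 bases before the start, with 1 base between the decamers and 2 mismatches. In Sesn1 (chr10:41887243-41887285, plus strand) it begins 186 bases before the downstream of the gene's 2 listed starts, with 3 bases between and 2 mismatches. Mdm2 (chr10:117710925-117710954, minus strand) and Aen (chr7:78895927-78895956, plus strand) each show a single decamer without a mismatch. It begins 186 bases before the start in Mdm2 and 121 bases before the downstream of 2 listed starts in Aen. Relative to the upstream start of Aen, the same decamer lies after the start. The windows of Bbc3 and Phlda3 held no exact match, which says only that these letters are not in those windows.

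All 12 probes were well above background in both channels on all 3 arrays, from 1 spot each, and none was saturated or an outlier. Mdm2, Ccng1, Bax, Bbc3, Pmaip1, Phlda3, Zmat3 and Sesn1 had 1 probe each, and Trp53inp1 and Aen had 2. Before normalization the median spot of an array was brighter in Cy5 (234 to 257) than in Cy3 (142.5 to 155.5). Log2 ratios of Cy5 over Cy3 were therefore centred along the brightness of the spots within each array by loess, and positive ratios mean that Cy5, labelled Brpf1-deficient, was the stronger channel. Between 27483 and 33329 probes were well above background per channel and array. The disrupted gene itself was not lower in that channel. Its probe had intensities of 1772.5, 2125 and 1537 in Cy3 and 12356.5, 6418 and 5168 in Cy5 in pairs 1, 2 and 3. Its log2 ratios were 2.01, 1.43 and 1.06 (limma adjusted p = 0.0405). Brpf1, like every gene tested, was not past 0.05 with a loess span of 0.02, with the scanner software's processed signals or without any 1 pair. With each probe tested on its own, the limma adjusted p of its probe was 0.0596. Whether this probe lies in the disrupted part was not analysed here, and whether the channel labels were exchanged was not tested; every direction given for a gene is therefore that of the channels by their labels, not of the genotypes. The embryo tissue markers, 12 genes of heart, neural tube, somite, notochord and vessel, were well above background in both channels on all arrays.

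**Figure D1:**
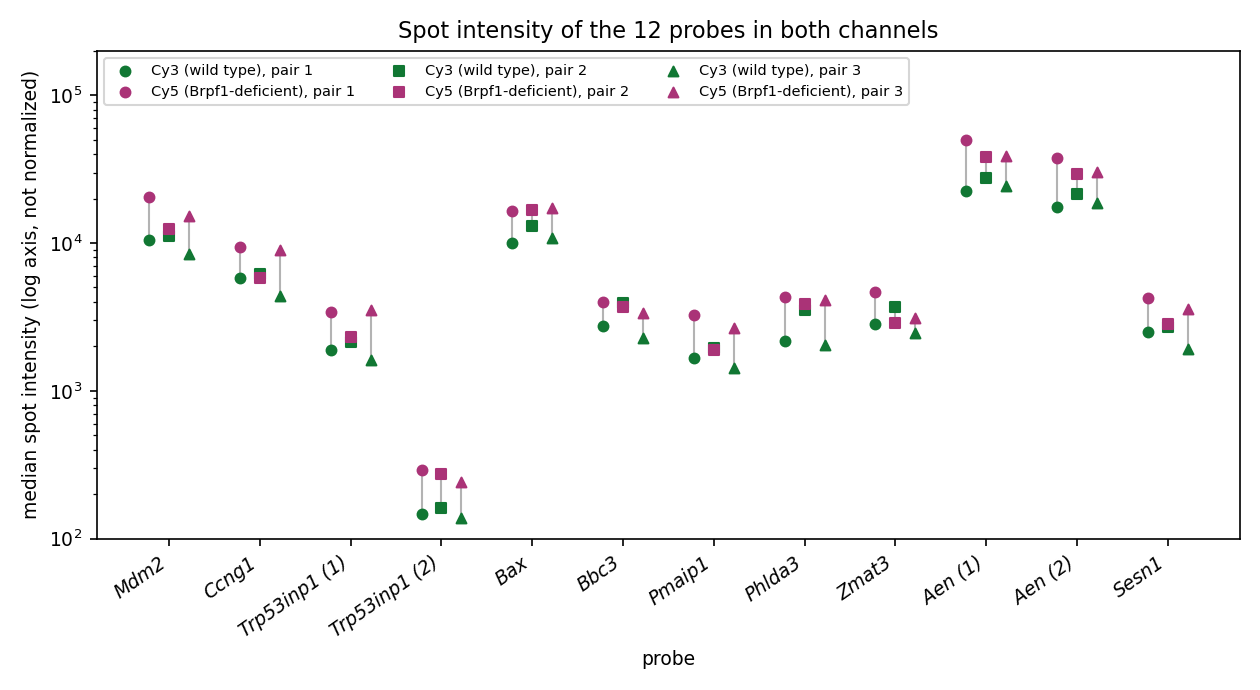
Median spot intensity (vertical, log axis, before normalization) of the 12 probes of the p53 target genes; green symbols are Cy3, labelled wild type, and purple symbols Cy5, labelled Brpf1-deficient, with circles, squares and triangles for pairs 1, 2 and 3 and a line joining the channels of an array. Cy5 is the brighter channel for all 12 probes in pairs 1 and 3; in pair 2 (squares) Ccng1, Bbc3, Pmaip1 and Zmat3 are brighter in Cy3. The probes of different genes are not comparable in level.

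None of the 10 genes was higher or lower in the channel labelled Brpf1-deficient past the threshold over all genes. Their mean log2 ratios ran from -0.31 for Zmat3 to 0.17 for Phlda3, with 5 above 0 and 5 below, and a median of -0.01. The median over all 23555 genes tested was -0.02. The count past an adjusted p of 0.05 (limma, Benjamini-Hochberg over all genes tested) was 0 of 10, against 1.38% of all genes (1.29% higher and 0.0934% lower). At an unadjusted p below 0.05 it was 1 of 10 (Zmat3), against 17.3% of all genes, and with each probe tested on its own 0 of 12 probes passed, against 0.813% of all probes (0.788% higher and 0.0253% lower). The 95% intervals of the 10 means lay between a Cy5 over Cy3 fold of 0.664 (Zmat3) and 1.38 (Trp53inp1). A difference within the interval of its gene is not excluded by these 3 pairs. The intervals are no limit of detection, since larger mean ratios could fail the threshold too. Sesn2, another p53 target described below, had 0.59 ± 0.10 (SE) and did not pass (limma adjusted p = 0.0885).

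**Figure D2:**
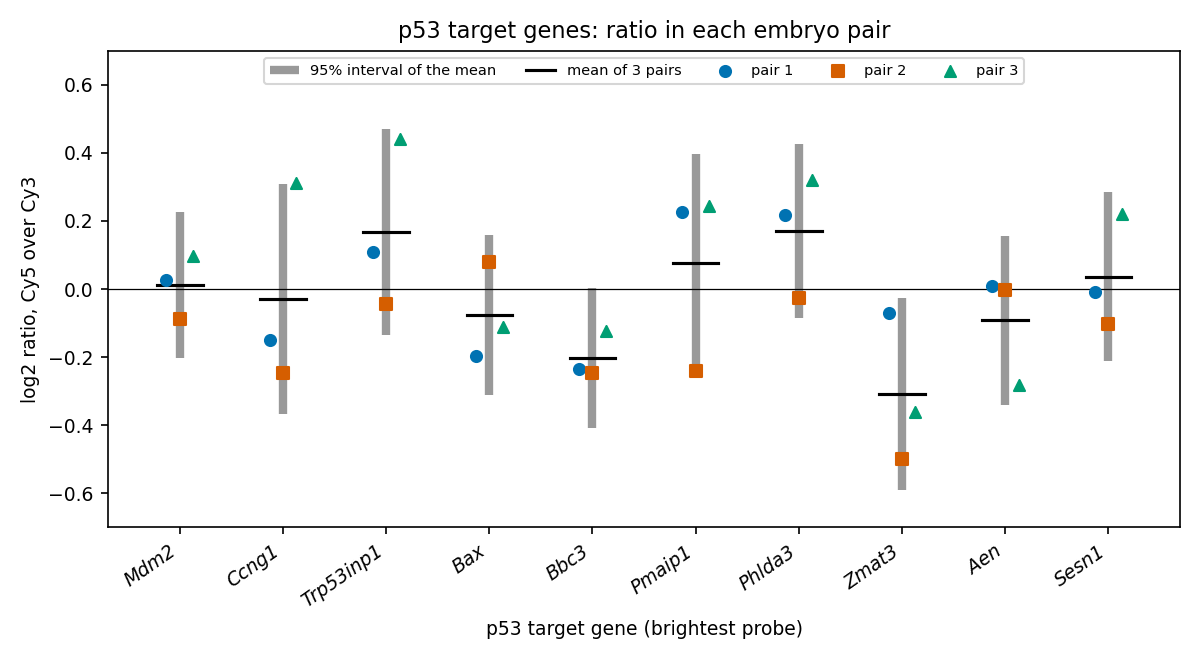
Log2 ratio of Cy5 over Cy3 after loess (vertical) of the brightest probe of each p53 target gene (horizontal) in pair 1 (circles), pair 2 (squares) and pair 3 (triangles), with the mean as a black line and its 95% interval from limma as a grey bar. The intervals cover 0 except that of Zmat3, and in 7 of the 10 genes pair 3 is the highest and pair 2 the lowest.

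The feedback regulators lay close to 0. Mdm2, which encodes the ligase that marks p53 for degradation, had spot intensities of 10482, 11148 and 8371.5 in Cy3 and 20532, 12363.5 and 15321.5 in Cy5 in pairs 1, 2 and 3. After loess its log2 ratios were 0.03, -0.09 and 0.10. The pairs lay on both sides of 0 and within a narrow range, and the mean was 0.01 ± 0.08 (SE, n = 3 pairs; limma adjusted p = 0.95), with a 95% interval from -0.20 to 0.23. Among the 10 genes, the spread of Mdm2 between pairs (SD 0.092) was smaller than that of any other except Bbc3 (SD 0.067).

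Ccng1 encodes cyclin G1, which recruits a phosphatase to MDM2, and its promoter holds the abutting decamers shown above. Its intensities were 5810, 6161 and 4364.5 in Cy3 and 9357, 5834 and 8904.5 in Cy5. After loess, its log2 ratios were -0.15, -0.25 and 0.31, so pair 3 stood on the other side of 0 from pairs 1 and 2. The mean was -0.03 ± 0.13 (SE; adjusted p = 0.92), and the SD of 0.30 between pairs was the largest of the 10 genes.

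Trp53inp1 encodes a nuclear protein that promotes p53 activity and autophagy. Its brighter probe had intensities of 1884, 2147 and 1620.5 in Cy3 and 3430, 2320.5 and 3514.5 in Cy5, and log2 ratios of 0.11, -0.05 and 0.44. Its dimmer probe had 147.5, 160 and 137 in Cy3 and 291.5, 273 and 240 in Cy5, and log2 ratios of 0.21, 0.15 and 0.12. The mean was close for both, 0.17 ± 0.12 (SE; limma adjusted p = 0.49) and 0.16 ± 0.08 (adjusted p = 0.39 over all probes), but the pairs were ordered differently: pair 3 was the highest with the brighter probe and the lowest with the dimmer one.

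The genes of cell death lay on both sides of 0. Bax encodes the protein that perforates the outer mitochondrial membrane. Its intensities were 9994.5, 13079 and 10803 in Cy3 and 16447.5, 16696 and 17374 in Cy5, which gave log2 ratios of -0.20, 0.08 and -0.11. Pair 2 was the highest and the only one above 0, unlike in most of the other genes. The mean was -0.08 ± 0.09 (SE, n = 3; adjusted p = 0.69).

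Bbc3 encodes PUMA, a BH3-only protein that frees and activates BAX. It had 2731, 3946 and 2282 in Cy3 and 3965, 3706 and 3336 in Cy5, and log2 ratios of -0.23, -0.25 and -0.12. All 3 pairs lay below 0, close together. The mean was -0.20 ± 0.08 (SE; adjusted p = 0.29) and did not pass the threshold, with a 95% interval from -0.41 to 0.0036 that reached just past 0.

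Pmaip1 encodes NOXA, a BH3-only protein that counters MCL1. Its intensities were 1663, 1959 and 1426 in Cy3 and 3276, 1894 and 2670.5 in Cy5, and its log2 ratios 0.23, -0.24 and 0.24. Pairs 1 and 3 agreed closely and pair 2 lay as far on the other side of 0, so the mean was 0.08 ± 0.13 (SE; adjusted p = 0.78). The 2 BH3-only genes thus differed in pairs 1 and 3 and were alike in pair 2, a difference that was not tested.

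Phlda3 encodes a pleckstrin homology protein that restrains the survival kinase AKT. It had 2184.5, 3528.5 and 2045 in Cy3 and 4312, 3882.5 and 4099 in Cy5, with log2 ratios of 0.22, -0.03 and 0.32. Pairs 1 and 3 were above 0 and pair 2 near it, with a mean of 0.17 ± 0.10 (SE; adjusted p = 0.42). Aen encodes a nuclease that cuts DNA in apoptosis. Its brighter probe had intensities of 22572.5, 27539 and 24402 in Cy3 and 49723, 37988 and 38571 in Cy5. It had log2 ratios of 0.01, -0.0021 and -0.28, and the dimmer probe 0.05, 0.06 and -0.19. Both probes placed pairs 1 and 2 at about 0 and pair 3 below, the reverse of most of the other genes, and the means were -0.09 ± 0.10 (SE; adjusted p = 0.64) and -0.03 ± 0.09 (adjusted p = 0.90 over all probes).

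Zmat3 lay farthest from 0. It encodes a zinc finger protein that binds RNA and influences splicing and mRNA stability. Its intensities were 2849.5, 3671 and 2474.5 in Cy3 and 4652.5, 2880.5 and 3085 in Cy5, and its log2 ratios -0.07, -0.50 and -0.36. All 3 pairs were below 0, pair 1 only slightly. The mean was -0.31 ± 0.11 (SE, n = 3), a 95% interval from -0.59 to -0.03, with an unadjusted limma p of 0.037 and an adjusted p of 0.26. Among the 2284 genes of like brightness (mean log2 intensity from 11 to 12), 6.52% had a lower mean ratio.

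Sesn1 encodes sestrin 1, which restrains mTORC1 and supports antioxidant defence. It had 2514.5, 2719 and 1903 in Cy3 and 4271, 2819 and 3554 in Cy5, and log2 ratios of -0.01, -0.10 and 0.22. The pairs lay on both sides of 0, with a mean of 0.04 ± 0.10 (SE; adjusted p = 0.87). Zmat3 and Bbc3 were the 2 genes of 10 (20%) with the same sign in all pairs, against 43.4% of all genes tested.

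**Figure D3:**
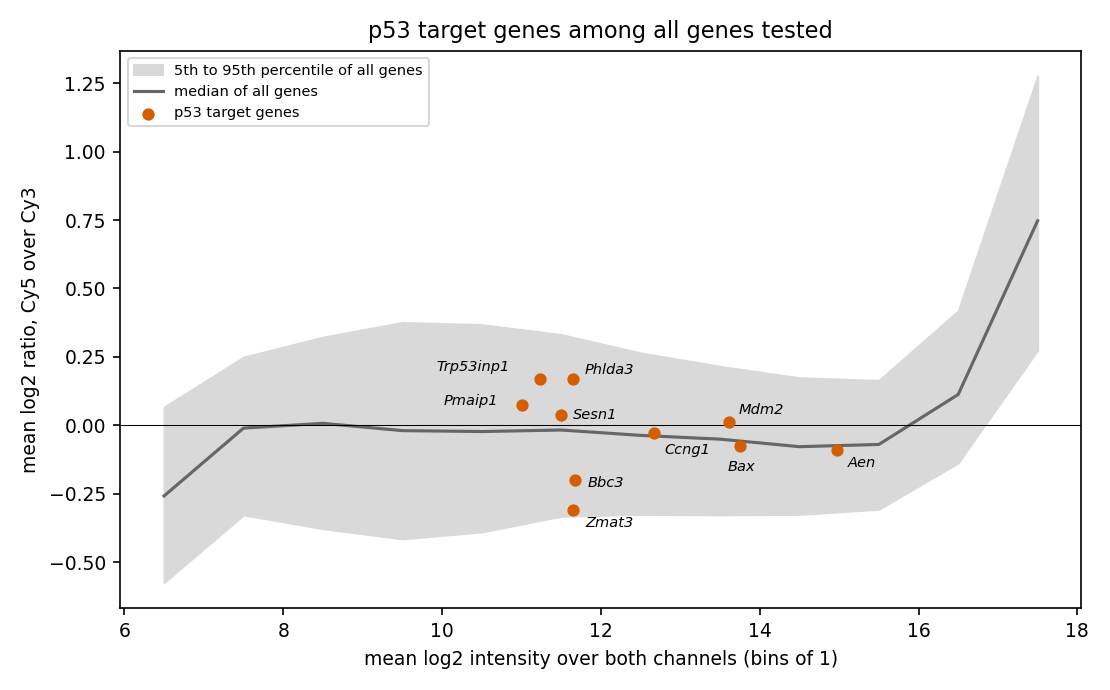
Mean log2 ratio of Cy5 over Cy3 over 3 pairs (vertical) against mean log2 intensity over both channels (horizontal); orange points are the p53 target genes, the dark line is the median and the grey band the 5th to 95th percentile of all genes tested, in bins 1 unit wide. All 10 genes lie inside the band and below the bright end, where the median of all genes reaches 0.75.

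All 10 genes lay between the 5th and the 95th percentile of the genes of like brightness, as the plot of ratio against brightness shows. None was in the brightest bin, above a mean log2 intensity of 17, where 544 genes had a median ratio of 0.75 after loess. The brightest of the 10 probes, that of Aen, had a mean log2 intensity of 15.0.

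The 10 genes varied more between pairs than their means departed from 0. Their median SD between pairs was 0.17 and their median absolute mean ratio 0.084, against 0.16 and 0.13 over all genes. In 7 of the 10 (Mdm2, Ccng1, Trp53inp1, Pmaip1, Phlda3, Sesn1 and Bbc3), the ratio was the highest in pair 3 and the lowest in pair 2, against 25.0% of all genes tested. The median of the 10 genes was -0.00072, -0.09 and 0.16 in pairs 1, 2 and 3, and that of all genes was -0.02, -0.04 and -0.0054. In pair 2 only 1 gene of the 10, Bax, lay above 0, against 10651 of all 23555 genes. In pair 3 it was 6 of the 10, against 11509 of all 23555 genes. Each array holds 1 RNA per channel, so a difference between embryos, between RNA preparations and between arrays cannot be told apart here. The pattern was chosen after the values were seen and was not tested. It held for 7 of 10 genes without background correction, 6 with a loess span of 0.02 or the scanner software's processed signals, and 8 with median centring. With each probe taken on its own, it held for 7 of the 12 probes (58.3%), against 23.6% of all probes. Under median centring 31.7% of all genes had it, and the median of all genes was -0.21 in pair 2 alone.

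Markers of other tissues varied between the pairs as well. In the list named for decidua and uterus, the maternal tissue around the embryo, all 12 genes had their highest ratio in pair 3, where all were above 0. Of all genes tested, 35.7% had their highest ratio in pair 3, and 11509 of 23555 were above 0 there. Whether the embryo itself expressed these genes was not analysed here, so the tissue behind their values was not determined. The median of this list was -0.45 in pair 1, -0.57 in pair 2 and 0.59 in pair 3, and the summed spot intensity of its 12 genes ranged from 41617 to 78447 in Cy3 and from 52134 to 115079 in Cy5. All 12 were well above background in Cy3 on all arrays and 11 were in Cy5. The visceral endoderm and yolk sac markers had medians of 0.18, 0.49 and 0.54, with 18 of 18 means above 0. Over all genes, 10744 of 23555 means lay above 0. The summed intensities of these markers ran from 606590 to 686722 in Cy3 and from 1334180 to 2356690 in Cy5. The primitive erythroid markers had medians of -0.49, 0.72 and 0.44, with sums from 245705 to 692562 in Cy3 and from 893480 to 1855430 in Cy5. Both lists were well above background in both channels on all arrays, and 6 of their genes (Rbp4, Afp, Hbb-bh1, Hba-x, Hba-a1 and Hbb-y) lay in the brightest bin, where the median of all genes was 0.75. In each of these 2 lists 1 gene was higher past the threshold, against 1.29% of all genes. These were Apoc2 (mean 1.16, limma adjusted p = 0.0296) and Hbb-bh1 (1.28, adjusted p = 0.0418). Neither passed with a loess span of 0.02, with processed signals or without any 1 pair, where no gene did. The embryo tissue markers had medians of -0.11, -0.11 and -0.14, with 8 of 12 means below 0, against 12811 of 23555 over all genes. The lowest of them in pair 3, picked by that value, were T, with -0.13, -0.46 and -1.10, and Tbx6, with -0.07, -0.02 and -1.27. Foxa2 had -0.63 in pair 3, Myl7 -0.01 and Meox1 0.08, and 4 of the 12 genes lay above 0 there. These 2 genes thus do not stand for a tissue. Medians were -0.11, -0.33 and 0.06 for the trophoblast markers (8 of 10 tested) and -0.42, -0.16 and -0.05 for the leukocyte markers (7 of 8 tested), of which 3 were well above background in Cy5 on all arrays. For the immediate early genes, which respond to handling, the medians were 0.12, 0.10 and 0.10. The part of these in the values of the p53 targets was not tested, and in RNA of whole embryos fewer cells of a type and less RNA per cell cannot be told apart.

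Other genes of the pathway were read from 4 lists. p53 itself (Trp53) had log2 ratios of -0.25, 0.05 and -0.29 in pairs 1, 2 and 3, a mean of -0.17 ± 0.10 (SE, n = 3; limma adjusted p = 0.44). In Trp53, pair 2 was the highest and pair 3 the lowest. Mdm4, the partner of MDM2 that blocks p53's activation domain, had -0.17, -0.15 and -0.17, with a mean of -0.16 ± 0.08 (adjusted p = 0.35) and little spread between pairs (SD 0.012). A mean over its probes gave -0.08. Among 20 genes of the list p53 and its regulators, 1 was higher past the threshold (against 1.29% of all genes in that direction) and 0 were lower, with a list median of -0.08.

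The gene past the threshold was Rpl11, a ribosomal protein that binds and inhibits MDM2 when ribosome assembly fails. It had log2 ratios of 1.33, 1.12 and 1.15, with a mean of 1.20 ± 0.09 (SE; adjusted p = 0.0232). Its probe lay in the brightest bin (mean log2 intensity 17.3), and with a loess span of 0.02 the ratio was 0.45 ± 0.08 (adjusted p = 0.273), with processed signals 0.51 (adjusted p = 0.247). It did not pass after omission of any 1 pair either (adjusted p 0.056 to 0.20). Rpl5, which acts with it, had 0.43 ± 0.09 (adjusted p = 0.14), and 0.04 with a span of 0.02. Ppp1r13l, which encodes the p53 inhibitor iASPP, had -0.38 with pairs from -0.64 to -0.05, and the damage kinase Atr had -0.23, neither past the threshold (adjusted p = 0.258 and 0.286).

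Of 35 other p53 targets tested from a list of 37, 0 passed in either direction (limma), against 1.38% of all genes, and 9 had an unadjusted p below 0.05, against 17.3% of all genes. Of the 35 means 17 lay above 0, with a median of -0.01, and of all 23555 means 10744 did, with a median of -0.02. Those with the smallest p lay on both sides. Sesn2, the stress-induced relative of Sesn1, had log2 ratios of 0.44, 0.79 and 0.55, all above 0, and Rprm, a cell cycle inhibitor, 0.25, 0.72 and 0.44. Ckap2, a spindle protein, had -0.34, -0.42 and -0.35, and Fbxo32, a ubiquitin ligase subunit, -0.28, -0.46 and -0.33. Their adjusted p-values were 0.0885, 0.17, 0.14 and 0.166. Cdkn1a, the p21 cell cycle inhibitor and best known target, had 0.24, -0.24 and 0.41, a mean of 0.14 ± 0.14 (SE; adjusted p = 0.63), with pair 3 the highest and pair 2 the lowest as in 7 of the 10 genes above. In the list of other targets, 37.1% of the genes had this order.

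**Figure D4:**
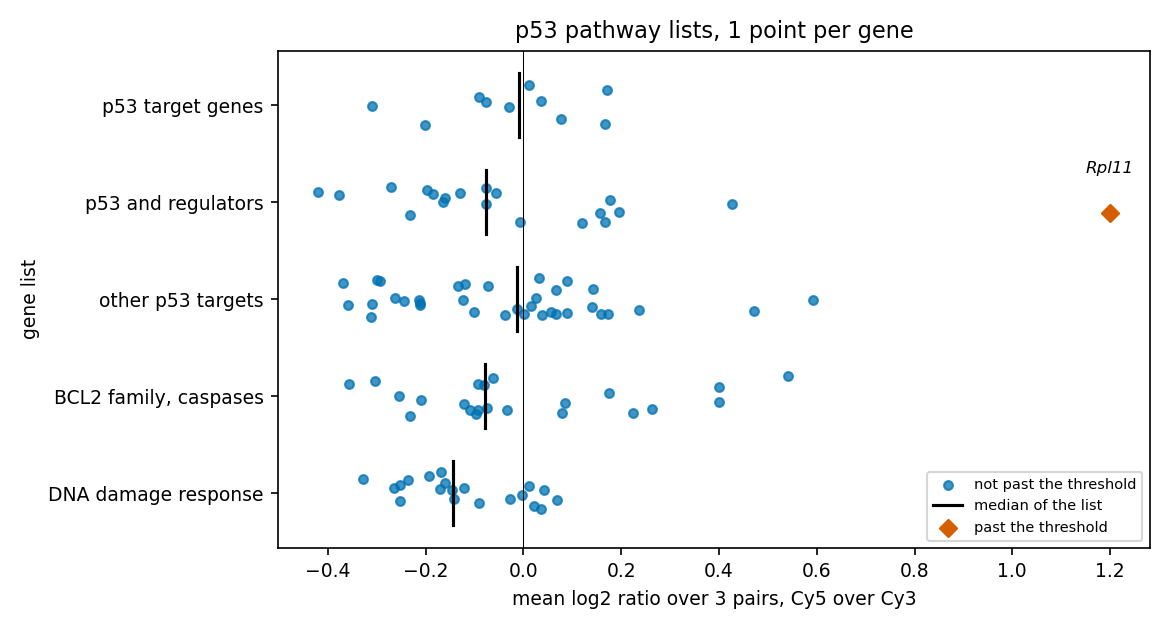
Mean log2 ratio over 3 pairs (horizontal) of each gene in the p53 target set and in 4 lists of the pathway (vertical, scattered for clarity), with the median of each list as a black line and genes past an adjusted p of 0.05 as orange diamonds. Rpl11 at 1.20 is the only gene past the threshold, and the list medians lie between -0.14 and -0.01.

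The proteins that BAX, PUMA and NOXA act with were read from the list BCL2 family and caspases. Of 22 genes tested of 23, 0 passed in either direction (1.38% of all genes) and 7 had an unadjusted limma p below 0.05 (17.3% of all genes). Of the 22 means 8 lay above 0, against 10744 of 23555 over all genes, and the median was -0.08. Cycs, the cytochrome c released through BAX pores, had 0.40 ± 0.08 (SE; adjusted p = 0.13) with its brightest probe and 0.07 as a mean over its probes. The BH3-only gene Bcl2l11 (BIM) had 0.37, 0.63 and 0.20 (adjusted p = 0.199), and Bik 0.30, 0.23 and 0.26 (adjusted p = 0.215). Bmf, also BH3-only, lay below 0 with -0.46, -0.45 and -0.17 (adjusted p = 0.196). These 3 genes lay on both sides of 0, without passing the test. They were named for a small unadjusted limma p, which favours genes with 1 sign in all pairs. Of the other BH3-only genes in the list, Hrk and Bad were below 0 in all pairs, and Bid had 0.23, 0.06 and -0.03.

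The DNA damage response list, of genes that sense and repair breaks upstream of p53, had 0 of 20 genes past the threshold (1.38% of all genes). At an unadjusted limma p below 0.05 it had 4 of 20, close to the 17.3% of all genes. Of the 20 means 15 lay below 0, against 12811 of 23555 over all genes, with a median of -0.14 and pair medians of -0.10, -0.23 and -0.10. Mdc1, a scaffold at broken DNA, had -0.34, -0.29 and -0.35 (adjusted p = 0.166). Xrcc6 (Ku70) had -0.24, -0.25 and -0.31, Prkdc, the DNA-dependent kinase, -0.14, -0.35 and -0.27, and H2ax, the histone variant phosphorylated at breaks, -0.06, -0.37 and -0.33. All 4 were below 0 in every pair, with limma adjusted p-values from 0.166 to 0.284. They were named for the smallest unadjusted p of the list, which favours genes with 1 sign in all pairs. The same sign in all pairs was seen in 12 of the 20 genes, against 43.4% of all genes. Over all 97 genes tested in the 4 lists together, 1 was past the threshold, against 1.38% of all genes, and 24 had an unadjusted limma p below 0.05, against 17.3%.

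**Figure D5:**
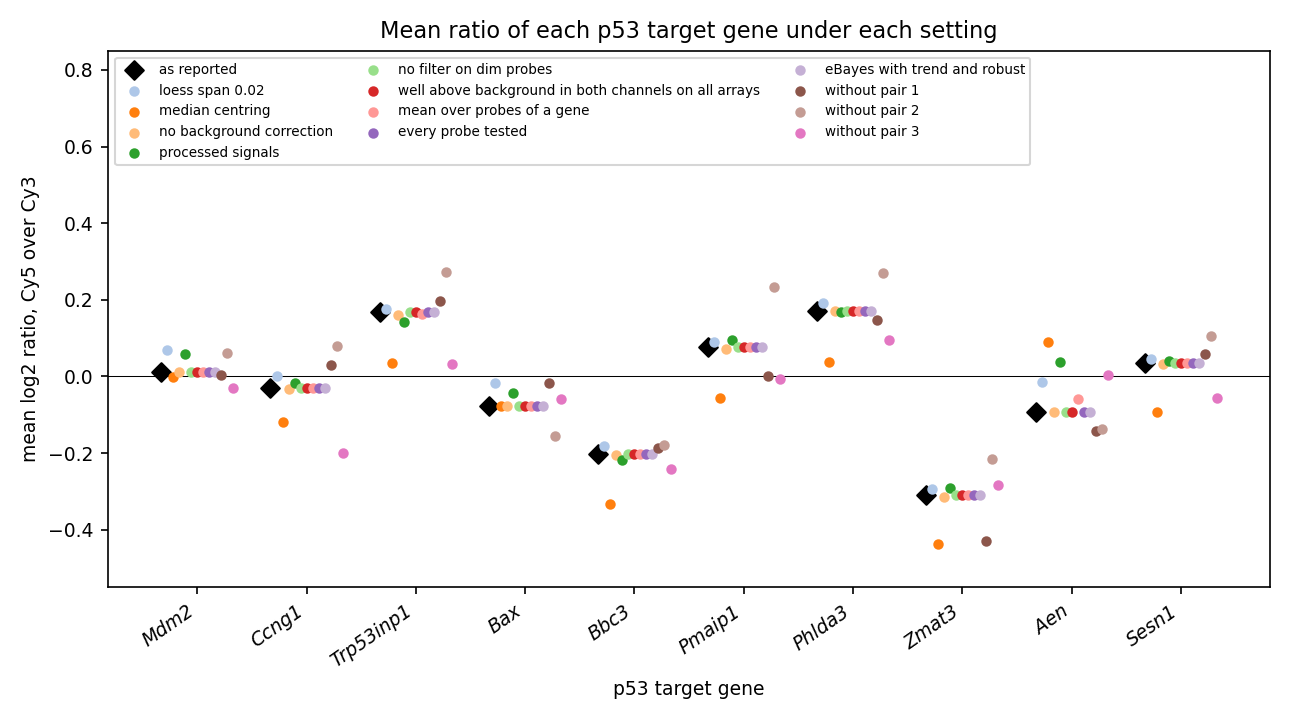
Mean log2 ratio of Cy5 over Cy3 (vertical) of each p53 target gene (horizontal) as reported (black diamonds) and under each of 12 other settings of the processing (coloured points). Zmat3 and Bbc3 lie below 0 and Trp53inp1 and Phlda3 above 0 under every setting shown, while Mdm2, Ccng1, Pmaip1, Aen and Sesn1 cross 0 under at least 1.

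No setting of the processing brought any of the 10 genes past the threshold. With a loess span of 0.02, with processed signals or without any 1 pair, no gene tested passed, so none of the 10 could. Under the other settings few genes passed, from 156 of 23555 (trended and robust eBayes) to 651 of 23555 (median centring). A count of 0 among 10 genes therefore says little about these genes. The smallest adjusted p of any of the 10 under any setting was 0.254 (limma without a filter on dim probes). Zmat3, Bbc3 and Bax stayed below 0, and Phlda3 and Trp53inp1 above 0, in all 12 alternatives, while the other 5 genes changed sign in at least 1. The size of several of these values depended on 1 pair or on the centring. With 1 pair left out, Trp53inp1 ranged from 0.032 (without pair 3) to 0.27, Phlda3 from 0.095 to 0.27 and Bax from -0.15 to -0.016 (without pair 1). Bbc3 ranged from -0.24 to -0.18 and Zmat3 from -0.43 to -0.22. With median centring Trp53inp1 had 0.035 and Phlda3 0.038, and with a loess span of 0.02 Bax had -0.016.

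The authors' deposited table lists 7 of the 12 probes, for 6 of the 10 genes, and stops at an unadjusted p of 0.537. Its ratio has no stated direction and correlates at -0.80 over 39915 shared probes with Cy5 over Cy3 as computed here, so its sign is turned here. The authors' deposited table lists Brpf1 at -1.55 in its own direction and thus at 1.55 when turned (limma adjusted p = 0.29). Since the sign was turned to follow the ratios computed here from the same arrays, this is no separate evidence on the direction of Brpf1. The authors' deposited table then gives -0.31 for Zmat3 (adjusted p = 0.52), -0.20 for Bbc3 (0.54), -0.11 for Aen (0.67), -0.08 for Bax (0.73) and 0.19 for Phlda3 (0.60). For Trp53inp1 the authors' deposited table gives 0.19 with the brighter probe and 0.42 with the dimmer (adjusted p = 0.63 and 0.38). The dimmer Trp53inp1 probe is the one value that differs between the sources by more than its SE here, 0.42 in that table against 0.16 ± 0.08.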

How the data were processed

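RNA of 3 pairs of embryos (350 ng each, 1 round of amplification, per the labels' protocols) was hybridised to 3 arrays read with Feature Extraction 10.7.3.1. Per the file headers, the intensity values the authors deposited are linear: a median per spot, a local background, and processed signals, already corrected for background and dye by the scanner software. The files also hold log10 ratios of those signals, per the file headers, which were not used. The authors' deposited table gives a log2 ratio, p-values and scores (limma's t and B) for each probe it lists. The submitters' processing notes name limma, without settings. All arrays have the same dye orientation, so dye and genotype cannot be told apart.

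Median signals were corrected with normexp (offset 50) and then normalized by loess (span 0.3), in which outlier spots and controls had weight 0. Probes well above background in 1 channel on at least 2 arrays, by at least 0.5 of their spots, were kept (31603), and the brightest stood for each gene (23555). Probes were named by RefSeq accession through the GRCm38.p6 gene table, and 27656 of 29123 with an accession matched 1 gene. The mean ratio was tested against 0 with limma 3.58.1 in R 4.3.3 (intercept only, two-sided, Benjamini-Hochberg, threshold 0.05). Named genes are all 10 targets with every probe, up to 4 genes per pathway list by smallest unadjusted p, and any list gene past the threshold. Trp53, Mdm4, Cdkn1a and Brpf1 are named as well. A few marker genes and BH3-only genes were named in addition, after their values were seen. The genes, lists and alternatives were chosen with earlier results of these data known. The number of arrays limits the precision.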

Additional observations from a re-analysis of the deposited data

How the results depend on the processing

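The count of the 10 p53 targets past the threshold was 0 under all 12 alternatives, including those, given below, in which no gene tested passed. Of 120 member values under an alternative, 108 kept their sign and 12 changed it, in 5 genes near 0. With median centring Mdm2 had -0.0019, Pmaip1 -0.057, Aen 0.091 and Sesn1 -0.093, with a loess span of 0.02 Ccng1 had 0.0014, and with processed signals Aen had 0.038. With 1 pair left out, Mdm2 ranged from -0.030 to 0.062, Ccng1 from -0.20 to 0.080, Pmaip1 from -0.0078 to 0.23, Aen from -0.14 to 0.0027 and Sesn1 from -0.055 to 0.11. The count of other pathway genes past the threshold (1, Rpl11) was 0 with a loess span of 0.02, with processed signals and without any 1 pair (0 to 0), and 3 with median centring. Of all genes, 326 passed, but 651 did with median centring, 201 as a mean over probes, 156 with a trended and robust eBayes, and 0 with a span of 0.02, with processed signals or without any 1 pair (0 to 0; 2145 to 3831 genes at an unadjusted limma p below 0.05). The cause was not tested. Each ratio sets both channels of an array against each other, so the test was paired by array. No further pairing could be fitted, because the 3 arrays form 1 group. All member probes were well above background in both channels on all arrays.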
